A study of Mus musculus with 4 samples.

Results

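The cytokine locus of mouse chromosome 11 is the 1 Mb from 53500001 to 54500000 (mm10) that holds Csf2, Il3, Il4, Il5 and Il13 together with Rad50, Irf1 and P4ha2. It was selected on a measured value, the length of a peak: the longest maternal H3K27me2 peak listed for Ezh2m+/p+ zygotes was nearest Csf2. Its members are every listed peak in this window and every peak that the authors' annotation gave to 1 of these 8 genes. They numbered 25 of the 56036 peaks of 4 lists, with 16 in the Ezh2m+/p+ maternal list, 9 in the Ezh2m-/p+ maternal list and 0 in both paternal lists. All peaks given to the 8 genes lay inside the window.

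Csf2 encodes the granulocyte-macrophage colony-stimulating factor, and Il3 a growth factor of blood progenitors and mast cells. Il4, Il5 and Il13 encode the cytokines that helper T cells release in allergic and anti-helminth immunity, and a control region of these genes lies within Rad50, which itself encodes a DNA repair protein. H3K27me2 is placed by the Polycomb repressive complex, of which EZH2 is a catalytic subunit, and in many cell types it covers much of the inactive genome.

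H3K27me2 was profiled by ULI-NChIP-seq, a method in which nucleosomes of few cells are cut free with MNase, pulled down in the native state by an antibody and sequenced. Zygotes of the late pronuclear stage PN5, without polar bodies, were made in vitro from C57BL/6J eggs and PWK/PhJ sperm, so that reads over strain variants could be given to the maternal or the paternal genome. Each genotype had 1 H3K27me2 library and 1 input library without antibody, and the zygotes of a library were pooled. No difference between genotypes can be set against replicates, and none was tested.

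Ezh2m+/p+ zygotes had mothers with floxed Ezh2 alleles (Ezh2fl/fl), at least 6 weeks old. For Ezh2m-/p+ zygotes the mothers had the same alleles and Gdf9-Cre, a recombinase expressed from the oocyte promoter of Gdf9 that removes exon 4 of Ezh2. In both groups the PWK/PhJ father gave an intact paternal Ezh2 allele. The deletion and the cell type could not be checked here, since the peak lists hold neither reads over the floxed exon nor expression values. Which genotype a list belongs to was taken from its label, and so was each direction given between genotypes.

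The lists give the position, length, nearest gene and fold over input of each peak, as the authors computed them, and no read counts. Peaks in them had a length of at least 999 bp and a fold over 5, so a gene without a listed peak may still carry the mark below these limits. Reads covered 33.3% of chromosome 11 in the maternal and 2.87% in the paternal genome of the Ezh2m+/p+ library, a ratio of 11.6. In the Ezh2m-/p+ library they covered 45.1% and 4.15%, a ratio of 10.9. Maternal coverage of chromosome 11 was the highest of the 20 chromosomes examined (1 to 19 and X) in both libraries. The part that coverage has in the peak numbers of the locus was not tested.

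Peaks of the locus were listed in the maternal genome only. The 16 peaks of the Ezh2m+/p+ maternal list covered 92.0 kb, or 9.20% of the window, and the 9 peaks of the Ezh2m-/p+ maternal list covered 27.8 kb, or 2.78%. The whole lists ran the other way, with 5744 maternal peaks for Ezh2m+/p+ and 9606 for Ezh2m-/p+ zygotes. At a fold over 10, however, 4 Ezh2m+/p+ and 5 Ezh2m-/p+ maternal peaks were left in the window. This limit acts unequally, since 59.5% of the whole Ezh2m+/p+ and 24.9% of the whole Ezh2m-/p+ maternal list had a fold of 10 or less. The excess of Ezh2m+/p+ peaks thus lay in peaks of low fold, which had a larger share of that list as a whole.

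**Figure D1:**
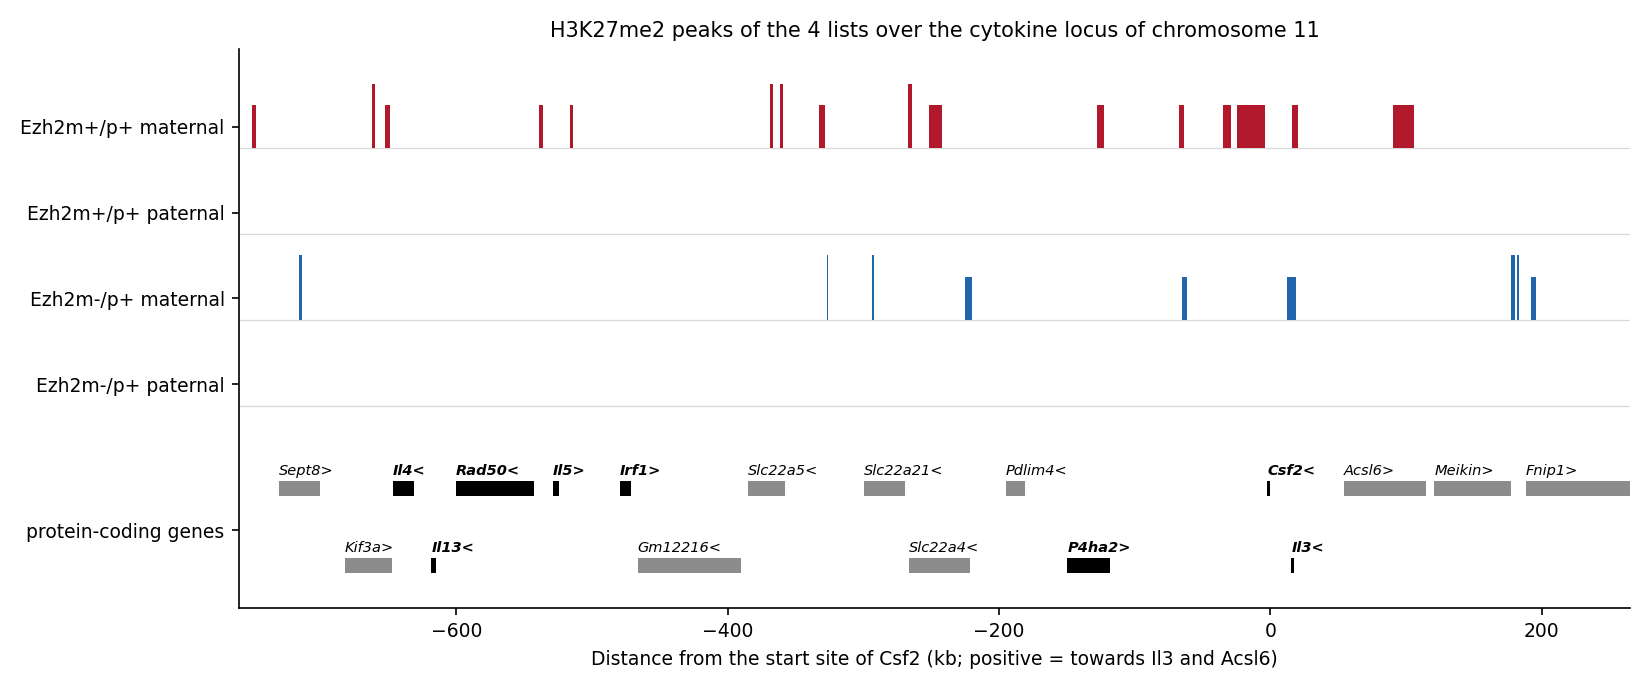
H3K27me2 peaks of the 4 lists (coloured blocks, tall where the fold was over 10) and protein-coding genes (grey bars, black for the 8 listed genes, with the direction of transcription) by distance in kb from the start site of Csf2. The maternal tracks hold 16 (Ezh2m+/p+) and 9 (Ezh2m-/p+) peaks, the longest of them just left of Csf2, and both paternal tracks are empty.

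Sequences of the locus are given with each CG dinucleotide, the substrate of DNA methylation in mammals, in capitals. The promoters of Il3, Csf2 and Slc22a4 are shown because a peak lay over the first in both genotypes, over the second in neither, and over the third in 1 genotype. They are RefSeq sequences of GRCm38.p6 on the minus strand, from 250 bases before to 50 bases after the RefSeq start, and each was identical to the genome at its position. The RefSeq start of Csf2 lies 232 bases upstream of the GENCODE start from which distances are given here, so its stretch lies before the gene as placed below. The middle of the longest peak, on the plus strand, is shown as the sequence that chose the locus.
Il3 promoter, chr11:54267230-54267529: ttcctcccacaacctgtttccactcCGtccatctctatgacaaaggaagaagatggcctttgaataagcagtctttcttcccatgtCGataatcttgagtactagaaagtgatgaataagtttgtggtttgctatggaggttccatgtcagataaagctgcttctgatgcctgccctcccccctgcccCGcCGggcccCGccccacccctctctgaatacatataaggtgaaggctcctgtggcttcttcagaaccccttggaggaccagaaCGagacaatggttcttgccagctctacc
Csf2 promoter, chr11:54249850-54250149: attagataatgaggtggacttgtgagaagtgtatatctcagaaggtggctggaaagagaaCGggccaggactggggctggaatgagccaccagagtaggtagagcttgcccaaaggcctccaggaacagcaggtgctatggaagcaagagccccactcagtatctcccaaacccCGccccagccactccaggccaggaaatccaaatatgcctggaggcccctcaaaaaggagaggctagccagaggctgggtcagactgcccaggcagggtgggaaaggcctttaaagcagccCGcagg
Slc22a4 promoter, chr11:54028055-54028354: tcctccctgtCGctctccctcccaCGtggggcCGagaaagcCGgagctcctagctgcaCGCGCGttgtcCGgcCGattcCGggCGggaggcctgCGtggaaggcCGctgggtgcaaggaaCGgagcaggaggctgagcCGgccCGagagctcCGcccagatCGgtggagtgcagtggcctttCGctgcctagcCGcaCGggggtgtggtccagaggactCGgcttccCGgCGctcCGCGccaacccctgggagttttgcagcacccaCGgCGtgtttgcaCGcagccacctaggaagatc
middle of the longest peak, chr11:54235501-54235700: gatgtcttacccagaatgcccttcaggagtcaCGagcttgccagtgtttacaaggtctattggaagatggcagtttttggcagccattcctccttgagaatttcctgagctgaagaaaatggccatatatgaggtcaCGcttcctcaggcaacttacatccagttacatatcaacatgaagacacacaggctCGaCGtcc
The Il3 promoter held 6 CG, the Csf2 promoter 3 and the Slc22a4 promoter 29, and the middle of the longest peak held 4 in 200 bases. Of 32851 RefSeq promoters of the same length, 56.4% had at least 6 CG, 76.7% at least 3 and 12.9% at least 29. The promoters of Irf1, a transcription factor of the interferon response, held 32 and 43 CG at its 2 RefSeq starts and carried no peak in any list.

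Csf2 lies on the minus strand at 54247271 to 54249667. The longest peak of the Ezh2m+/p+ maternal list ran from 54225201 to 54245999, a length of 20799 bp, and ended 1272 bp beyond the 3' end of Csf2, in the region the annotation calls downstream at 1-2kb. Its length was 6.94 times the median of the list (2999 bp), and the next longest peak had 17399 bp. Its fold over input was 7.29, which ranked it only 2912 by fold. No protein-coding gene lay under it. Neither the body nor the promoter of Csf2 was under a peak in any list, and the nearest Ezh2m-/p+ maternal peak lay 12.5 kb from its start. No Ezh2m-/p+ maternal peak touched the longest peak, and the nearest was 16.2 kb away.

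Il3, on the minus strand at 54265303 to 54267277, was the only gene of the locus whose start site lay under a peak in both maternal lists. The Ezh2m+/p+ peak (54266001 to 54269999) had a fold of 5.53 and covered 64.7% of the gene. The Ezh2m-/p+ peak (54262201 to 54268399) had a fold of 6.88 and covered all of it. The 2 peaks shared 2399 bp, which include the promoter sequence given above. Both folds were close to the limit of 5 that the authors set, and at a fold over 10 neither peak was counted. Csf2 and Il3 are thus neighbours that differed in both libraries, the start of Il3 being under a peak and that of Csf2 not.

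Of the type 2 cytokine genes Il4, Il5 and Il13, only Il5 had an assigned peak, and only in the Ezh2m+/p+ maternal list. Of all protein-coding genes, 14.9% had one in that list and 21.5% in the Ezh2m-/p+ maternal list. Il4 (53602982 to 53618669) and Il13 (53631324 to 53634702), neighbours on the minus strand, had no assigned peak in any list. In the Ezh2m+/p+ maternal list the nearest peak to their starts lay at 17.9 and 33.9 kb, and it was the same peak, at 53596801 to 53600799 in Kif3a (fold 5.25). For Ezh2m-/p+ zygotes the nearest maternal peak was 83.1 and 99.1 kb away, in Sept8 (Septin8). Il5 (53720794 to 53725106), which encodes the main growth factor of eosinophils, had 1 assigned Ezh2m+/p+ peak, at 53733201 to 53735799 and 12407 bp from its start, with a fold of 8.71. The nearest Ezh2m-/p+ peak to Il5 was 185 kb away, the greatest distance of any gene of the locus in either list.

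Rad50 (53649519 to 53707319) had an Ezh2m+/p+ maternal peak 3082 bp before its start, at 53710401 to 53713799 with a fold of 5.19, and no peak within its body, where the control region of the type 2 cytokines lies. This intergenic peak between Rad50 and Il5 was also the one nearest the start of Il5. Irf1 (53770014 to 53778374) had no assigned peak and lay 34.2 kb from the nearest Ezh2m+/p+ and 153 kb from the nearest Ezh2m-/p+ maternal peak. P4ha2 (54100095 to 54131665), a subunit of the prolyl hydroxylase that modifies collagen, had 1 Ezh2m+/p+ peak inside its body, at 54121801 to 54127399, with a fold of 5.95. The annotation placed this peak at a transcript start inside the gene, while the gene start lay 21.7 kb away. No Ezh2m-/p+ peak was given to Rad50, Il5, Irf1 or P4ha2.

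The widest stretch between neighbouring peaks that both lie in the window, leaving out the stretches cut by its edges, differed between the lists. In the Ezh2m+/p+ maternal list it measured 145 kb and held 2 protein-coding genes, Irf1 and Gm12216. In Ezh2m-/p+ zygotes it measured 387 kb and held 8, Kif3a, Il4, Il13, Rad50, Il5, Irf1, Gm12216 and Slc22a5. Of the 8 listed genes, 7 had their start nearer to an Ezh2m+/p+ than to an Ezh2m-/p+ maternal peak, and Il3 was covered in both lists. Over the 18 protein-coding genes of the window, 13 starts were nearer to an Ezh2m+/p+ peak and 4 to an Ezh2m-/p+ peak, where 34.8% and 64.9% of all protein-coding starts were. The median distance was 18.9 kb to an Ezh2m+/p+ and 37.3 kb to an Ezh2m-/p+ peak. Genes of the window share their peaks, and the choice of the window from the Ezh2m+/p+ list favours this direction, so these counts are a description of 1 locus.

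**Figure D2:**
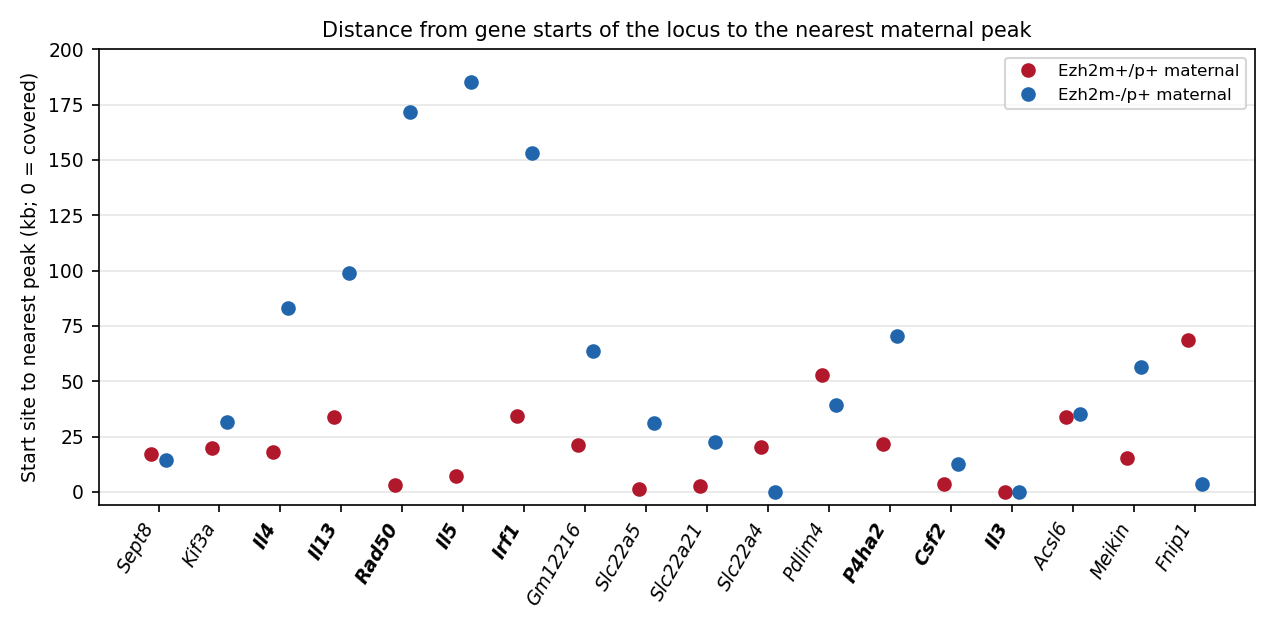
Distance in kb from the start site of each of the 18 protein-coding genes of the locus, in their order along the chromosome, to the nearest maternal H3K27me2 peak (red, Ezh2m+/p+; blue, Ezh2m-/p+; 0 where the start is under a peak; bold, the 8 listed genes). Il4 to Irf1 lie 83.1 to 185 kb from an Ezh2m-/p+ peak and 3.08 to 34.2 kb from an Ezh2m+/p+ peak.

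The neighbouring genes held most of the other peaks. The carnitine and organic cation transporter genes Slc22a5, Slc22a21 and Slc22a4 lie side by side on the minus strand. In the Ezh2m+/p+ maternal list, Slc22a5 had 3 assigned peaks with folds of 42.9, 50.9 and 7.20, Slc22a21 had 1 with a fold of 41.5, and Slc22a4 had 1 of 9799 bp with a fold of 9.27. In the Ezh2m-/p+ maternal list, Slc22a5 had none and Slc22a21 had 2, with folds of 22.9 and 26.0. Slc22a4 had 1 there, at 54024601 to 54029799 with a fold of 5.45, which lay over its CG-rich start. The nearest Ezh2m+/p+ peak to that start was 20.5 kb away, inside the gene.

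To the left of Il4, the kinesin gene Kif3a had 2 Ezh2m+/p+ peaks in its body, with folds of 41.5 and 5.25, and none in Ezh2m-/p+ zygotes. Sept8, a septin gene, had 1 peak in each maternal list, with folds of 5.19 (Ezh2m+/p+, 17.3 kb before its start) and 23.7 (Ezh2m-/p+, in its body). To the right of Il3, the acyl-CoA synthetase gene Acsl6 carried the second long Ezh2m+/p+ peak, of 15599 bp and a fold of 5.25, which covered 25.6% of its body, and no Ezh2m-/p+ peak. Fnip1, a folliculin partner at the right edge, showed the opposite. The Ezh2m-/p+ list gave it 3 peaks with folds of 33.7, 24.5 and 5.93, and the Ezh2m+/p+ list gave it 0, although 1 peak past the edge of the window (fold 38.9) overlapped its body. Pdlim4, Meikin and Gm12216 had no assigned peak in either maternal list.

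Between Csf2 and P4ha2, 2 Ezh2m+/p+ peaks and 1 Ezh2m-/p+ peak were assigned to 4933405E24Rik, a RIKEN transcript (gene identifier 71056). The Ezh2m+/p+ peak at 54182401 to 54186199 (fold 5.53) and the Ezh2m-/p+ peak at 54184801 to 54187999 (fold 6.50) shared 1399 bp in intron 2 of 2. With the pair over Il3, this was the only overlap of the maternal lists in the window. It amounts to 2 of 16 Ezh2m+/p+ peaks (12.5%) and 2 of 9 Ezh2m-/p+ peaks (22.2%). Over the whole lists, such overlaps made up 9.47% of Ezh2m+/p+ and 5.78% of Ezh2m-/p+ maternal peaks. The window was chosen from the Ezh2m+/p+ list and had 9.20% of its sequence under those peaks, against a mean of 0.704% over all windows, which favours overlap, so nothing is read from these shares. When an overlap of 50% of each peak was required, 0 of the 16 and 0 of the 9 peaks were shared, where 4.94% and 2.96% of the whole lists were. The other 14 Ezh2m+/p+ peaks lay between 1.80 and 187 kb from the nearest Ezh2m-/p+ peak of the window.

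Divided at the ends of Irf1, Pdlim4 and Acsl6, the window had its densest Ezh2m+/p+ stretch between Pdlim4 and Acsl6, which holds the peak that chose the locus, and its densest Ezh2m-/p+ stretch beyond Acsl6. Between Pdlim4 and Acsl6, 6 Ezh2m+/p+ maternal peaks covered 18.8% of 296 kb, against 2 Ezh2m-/p+ peaks and 3.18%. From the left edge to the end of Irf1, which includes the type 2 cytokine genes, 5 Ezh2m+/p+ peaks covered 5.24% of the sequence and 1 Ezh2m-/p+ peak covered 0.646%. From there to the end of Pdlim4, 5 Ezh2m+/p+ peaks covered 7.50% and 3 Ezh2m-/p+ peaks 2.75%. Beyond Acsl6 the order turned, with 0 Ezh2m+/p+ peaks and 3 Ezh2m-/p+ peaks that covered 6.36%. The 3 longest Ezh2m+/p+ peaks, near Csf2, in Acsl6 and in Slc22a4, made up 50.2% of the sequence under peaks.

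Long peaks were rare in both maternal lists. In the Ezh2m+/p+ list 9 peaks (0.157%) had at least 10 kb, and 2 of them, near Csf2 and in Acsl6, were the 2 such peaks of chromosome 11. In the Ezh2m-/p+ list 16 peaks (0.167%) had at least 10 kb, 2 of them on chromosome 11 and none in the locus. These lengths depend on the peak caller, which joins marked stretches across gaps, and the longest peak defined the locus, so its rank is a description.

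**Figure D3:**
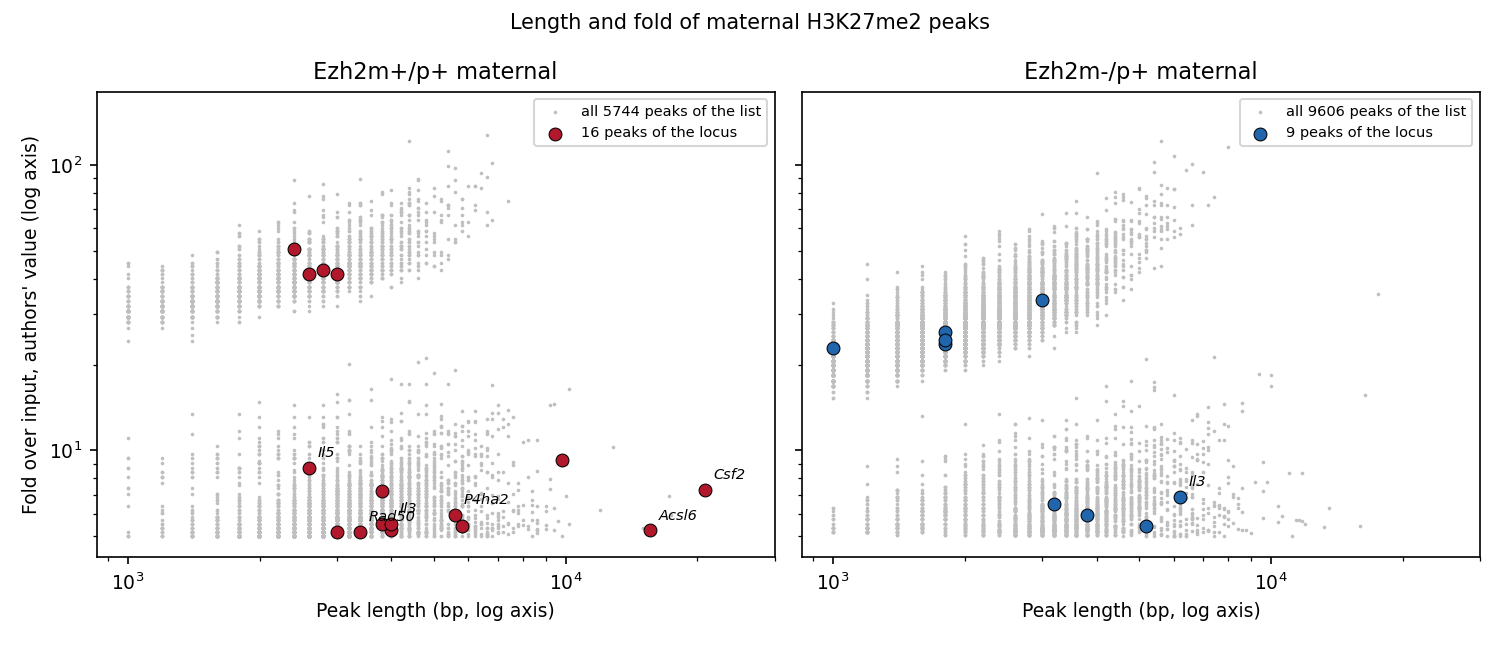
Length in bp and fold over input of each maternal peak on log axes (grey, all 5744 Ezh2m+/p+ and 9606 Ezh2m-/p+ peaks; coloured, the 16 and 9 peaks of the locus). Folds fall into a low and a high range with few between, and the long peaks near Csf2 and in Acsl6 are in the low range.

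The folds of both lists fell into separate ranges. In the Ezh2m+/p+ maternal list, 59.5% of peaks had a fold of 10 or less, 4.89% had a fold between 10 and 30, and 35.6% had more. Of the 16 locus peaks, 12 were in the low range (5.19 to 9.27) with lengths of 2599 to 20799 bp, and 4 were in the high range (41.5 to 50.9) with lengths of 2399 to 2999 bp. The 5 peaks assigned to the 8 listed genes were all in the low range, and the 4 of high fold lay in Kif3a and near or in the Slc22a genes. Of the Ezh2m-/p+ maternal list, 24.9% of peaks had a fold of 10 or less, 1.11% between 10 and 15, and 74.0% more. Of the 9 locus peaks, 4 were in the low range (5.45 to 6.88) and 5 in the high range (22.9 to 33.7). The input reads behind a fold are not given, and a fold need not mean the same in both libraries.

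The median base composition of the locus peaks lay within the quartiles of their lists. The median GC content was 45.7% for the 16 Ezh2m+/p+ peaks (40.8 to 50.6%) and 45.5% for the whole list. For the 9 Ezh2m-/p+ peaks it was 47.7% (40.4 to 52.5%), against 45.6%. The median CG density was 9.47 per kb in Ezh2m+/p+ peaks of the locus and 9.23 in the list, and 9.68 against 9.29 for Ezh2m-/p+. It ranged from 2.63 per kb in the Fnip1 intron to 22.7 per kb over the start of Slc22a4. The 20799 bp peak near Csf2 had 46.6% GC, 7.36 CG per kb and 19.1% repeat sequence. The window as a whole had 45.5% GC, and 85.2% of all 1 Mb windows had as much or less.

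By the authors' categories, 8 of the 16 Ezh2m+/p+ locus peaks (50%) and 4 of the 9 Ezh2m-/p+ peaks (44.4%) were promoter peaks, within 3 kb of the start of any transcript. In the whole lists promoter peaks made up 15.8% and 16.5%. However, the start of a protein-coding gene, as the reference gives it, lay under only 3 of the 25 peaks. A promoter peak need only lie within 3 kb of a start, and the annotation counts transcript starts inside genes as well. The covered starts were the starts of Il3 in both lists and of Slc22a4 in Ezh2m-/p+ zygotes. Of 18 genes, 1 start was covered in the Ezh2m+/p+ and 2 in the Ezh2m-/p+ maternal list, where 0.601% and 1.12% of 21140 protein-coding starts were covered in the genome.

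Counted by assigned peaks, 11 of the 18 genes carried a maternal peak in Ezh2m+/p+ zygotes, where 14.9% of all protein-coding genes did. The window was chosen from this list, so nothing is read from that count. In the lists that did not choose it, 5 of 18 genes carried an Ezh2m-/p+ maternal peak (21.5% of all genes), and 0 of 18 carried a paternal peak in either genotype, where 20.7% (Ezh2m+/p+) and 24.3% (Ezh2m-/p+) of all genes did. When a peak had to overlap the gene body or the 3 kb before its start, the Ezh2m+/p+ count was 8 and the Ezh2m-/p+ count 5, where 10.6% and 15.4% of all protein-coding genes had such a peak.

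Among 2561 windows of 1 Mb, the locus stood high in the Ezh2m+/p+ maternal list that chose it and less so in the other. With 16 peaks it was exceeded or equalled by 9 windows including itself (0.351%), and by sequence under peaks it ranked 2. With 9 Ezh2m-/p+ peaks, 342 windows (13.4%) had as many or more. The median window had 1 Ezh2m+/p+ and 2 Ezh2m-/p+ maternal peaks, and the medians over 118 windows of chromosome 11 were 4 and 5. An excess of Ezh2m+/p+ over Ezh2m-/p+ maternal peaks as large as here, or larger, was found in 4 windows (0.156%), the locus among them. The choice of the window from the Ezh2m+/p+ maternal list favours such an excess, so this share is a description only. At a fold over 10 the locus ranked 74 by peaks and 135 by sequence under peaks in the Ezh2m+/p+ list, a setting added after the data were seen.

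**Figure D4:**
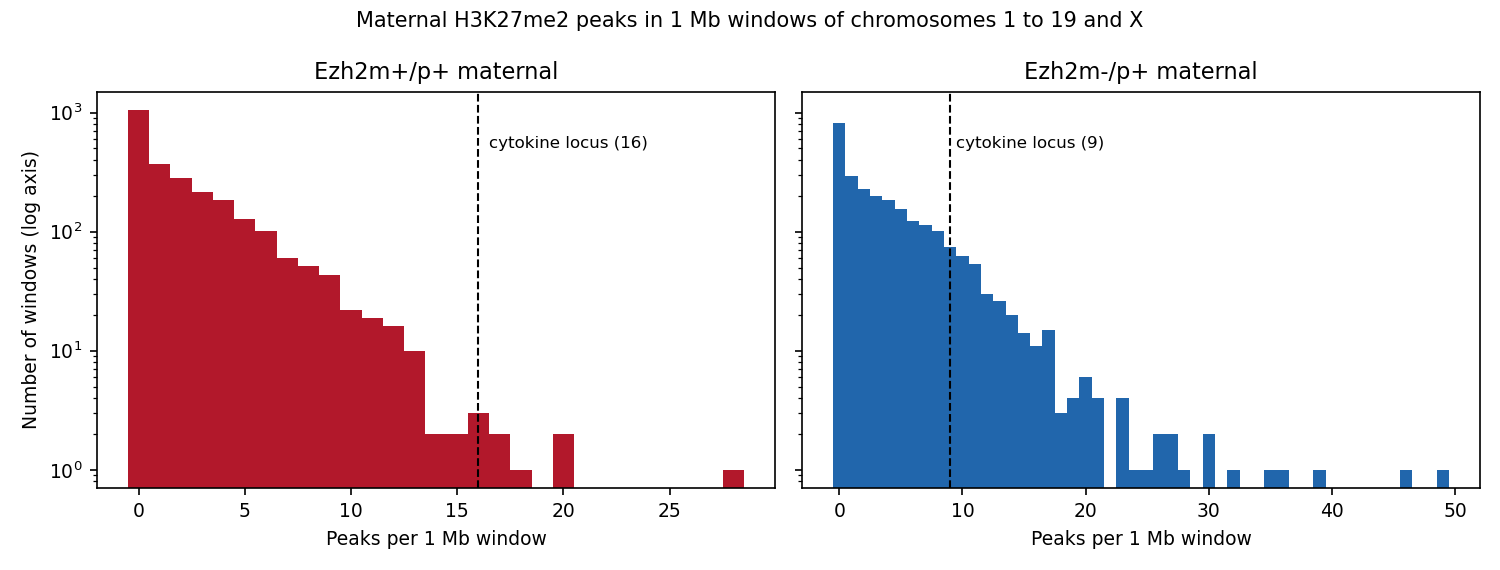
Number of 1 Mb windows (log axis) by the number of maternal H3K27me2 peaks they hold in Ezh2m+/p+ (red) and Ezh2m-/p+ (blue) zygotes, with the cytokine locus as a dashed line. The locus, with 16 peaks, is at the upper end in Ezh2m+/p+ and, with 9 peaks, inside the distribution in Ezh2m-/p+ zygotes.

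The paternal lists, which are the longest, had no peak in the locus or near it. The last Ezh2m+/p+ paternal peak before Csf2 ended at 47129999 and the next began at 56952801, which leaves 9.82 Mb without a peak. In Ezh2m-/p+ zygotes the stretch ran from 47094999 to 56943601, or 9.85 Mb, with nearly the same ends. It was not unique, since the Ezh2m+/p+ paternal list had 24 stretches at least as long and the Ezh2m-/p+ paternal list 21, and 885 of the 2561 windows (34.6%) held no paternal peak in either genotype. Maternal peaks continued through it, with 82 for Ezh2m+/p+ and 84 for Ezh2m-/p+, or 8.36 and 8.56 per Mb, against 4.55 and 5.83 per Mb over chromosome 11. Of the 885 windows without paternal peaks, 6 had at least as many Ezh2m+/p+ maternal peaks as the locus, itself included.

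Other genes of the cytokine pathway were counted by lists chosen with earlier results of these data known. Beside them, the shares of all protein-coding genes with an assigned peak were 14.9% (Ezh2m+/p+) and 21.5% (Ezh2m-/p+) in the maternal and 20.7% and 24.3% in the paternal lists. Of 8 colony-stimulating and type 2 cytokine genes, Csf2, Il3 and Il5 carried an Ezh2m+/p+ maternal peak, Il3 alone an Ezh2m-/p+ maternal peak, and Csf1, the macrophage growth factor on chromosome 3, alone a paternal peak in both genotypes. Of 40 further cytokine genes, 8 carried an Ezh2m+/p+ maternal peak (20%) and 5 an Ezh2m-/p+ maternal peak (12.5%), and 10 (25.0%) a paternal peak in each genotype. Il10, an anti-inflammatory cytokine, had 3 Ezh2m+/p+ maternal peaks, 1 of them over its start with a fold of 6.37. Of 11 receptor genes, 1 carried an Ezh2m+/p+ and 2 an Ezh2m-/p+ maternal peak. Il3ra, the receptor subunit for IL-3, was assigned 1 in each, and 1 in each paternal list as well. All of these were distal intergenic peaks. They lay 138780 (Ezh2m+/p+) and 15380 bp (Ezh2m-/p+) from its start in the maternal lists, and 175180 and 170580 bp in the paternal lists. In all, 5 receptor genes had a paternal peak in the Ezh2m+/p+ list and 1 in the Ezh2m-/p+ list.

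Of 11 JAK and STAT genes, which carry the signal of these receptors, 4 had an Ezh2m+/p+ and 7 an Ezh2m-/p+ maternal peak (63.6%, 95% Wilson interval 35.4 to 84.8%). Jak2, the kinase of the GM-CSF and IL-3 receptors, had 3 Ezh2m-/p+ peaks with folds of 5.16, 36.7 and 49.7 and no Ezh2m+/p+ peak. Paternal peaks were assigned to 2 of these genes for Ezh2m+/p+ and to 4 for Ezh2m-/p+. Of 9 interferon regulatory factors, Irf4 and Irf7 had an Ezh2m+/p+ maternal peak and Irf4 an Ezh2m-/p+ maternal peak, with no paternal peak in either genotype. Of the 3 genes of the repair complex of Rad50, Rad50 alone had an Ezh2m+/p+ peak, and Mre11a and Nbn had Ezh2m-/p+ maternal peaks. Of 4 prolyl hydroxylase genes, P4ha2 and P4ha3 had an Ezh2m+/p+ and P4ha1 an Ezh2m-/p+ maternal peak. Paternal peaks were assigned to 0 of the 3 repair genes and to 1 (Ezh2m+/p+) and 2 (Ezh2m-/p+) of the hydroxylase genes. These lists hold 86 genes, of which 24.4% carried an Ezh2m+/p+ maternal peak, but 5 of the 21 genes behind that share are listed genes of the locus. Without the 8 listed genes, 16 of 78 genes (20.5%, 13.0 to 30.8%) carried an Ezh2m+/p+ and 18 (23.1%, 15.1 to 33.6%) an Ezh2m-/p+ maternal peak, and both intervals include the shares over all genes, 14.9% and 21.5%. In the paternal lists the shares of the 78 genes were 24.4% (Ezh2m+/p+) and 23.1% (Ezh2m-/p+), beside 20.7% and 24.3% of all genes. Gene size was not matched.

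Set beside 10 other cytokine gene regions, each taken with 100 kb on both sides, the locus had the highest share of sequence under Ezh2m+/p+ maternal peaks, but it was selected on the longest peak of that list, so nothing is read from this order. The next were the Ccl2 cluster, also on chromosome 11, with 4.75%, and the Il10 cluster on chromosome 1 with 4.43%. No Ezh2m+/p+ maternal peak was listed around Il2 and Il21, Il17a and Il17f, the type I interferon genes, Csf1 or Il9. In the Ezh2m-/p+ maternal list the Il10 cluster (4.72%) and the Csf3 region (3.16%) were above the locus. The Ccl2 cluster and the Csf3 region had, like the locus, maternal but no paternal peaks in both genotypes. The Il9 region showed the reverse, where the paternal lists had 6 (Ezh2m+/p+) and 5 (Ezh2m-/p+) peaks and the maternal lists none. These regions are shorter than the locus, so a single peak weighs more in them.

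**Figure D5:**
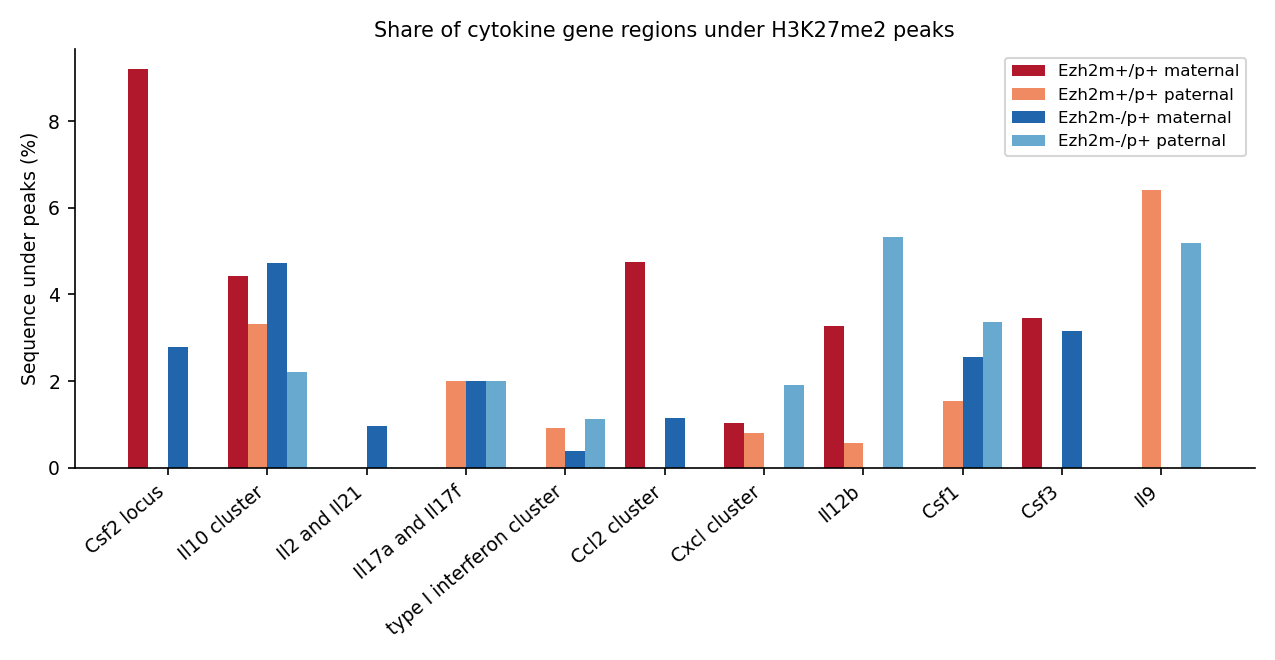
Share of sequence under H3K27me2 peaks in percent (bars) for the 1 Mb cytokine locus and for 10 other cytokine gene regions with 100 kb on both sides, in the 4 lists. The locus reaches 9.20% in the Ezh2m+/p+ maternal list and has no paternal bar.

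At the edges of the window, the outermost Ezh2m+/p+ peaks inside were at 53499001 to 53501999 (fold 5.19) and in Acsl6. The nearest outside lay 464 kb to the left (fold 42.9) and 7.001 kb to the right (fold 38.9). For the Ezh2m-/p+ maternal list, the outermost peaks inside were in Sept8 (fold 23.7) and Fnip1 (fold 5.93), and the nearest outside lay 82.2 kb to the left (fold 20.7) and 325 kb to the right (fold 8.89). Gdf9, whose promoter drives the Cre of the Ezh2m-/p+ mothers, lies just outside the window at 53431023 to 53437904. It had no assigned peak in any list, and the nearest maternal peak to its start was 68.0 kb away in the Ezh2m+/p+ and 13.2 kb away in the Ezh2m-/p+ list.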

How the data were processed

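Per the labels and the paper's methods, the authors used Trimmomatic 0.38 for trimming, Bowtie2 for alignment to mm10 and Picard to remove duplicates. SNPsplit divided the reads between the C57BL/6 and PWK genomes, SICER found peaks relative to the input, and ChIPseeker annotated them. The deposited peak lists give each peak's length in bp and a ratio (fold over input) for each genotype and parental genome. All 100% of peak starts fell on a grid of 200 bp. A deposited coverage table holds, per chromosome, the fraction that reads cover, converted here to percent. Its 42 values of 2 MII oocyte groups were not used.

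Peaks were taken as listed. Gene symbols were found for 11459 of 11472 gene identifiers (RefSeq), and gene positions came from GENCODE vM21. Of its 21755 protein-coding genes on chromosomes 1 to 19 and X, 21140 with their own gene identifier were the background. All 86 genes of the pathway lists were matched. Windows of 1 Mb began at 0.5 Mb and needed 50% known sequence. Peaks were shared at an overlap of 1 bp or more. Every peak of the locus, every gene starting in it, its neighbours, Gdf9 and list genes with a peak could be named. The locus, its members, the gene lists and the alternatives were chosen with earlier results of these data known. With 1 library per genotype no p-value was computed, and Wilson intervals (95%) cover the sampling of peaks or genes only. Counts were repeated at a fold over 10, with peaks longer than 2000 bp, with lists of equal size, peaks counted by their centre, a narrower window, genes assigned by overlap, and other overlap limits. Il1a, Il1b and Il1rn had been listed as 1 cluster, but Il1rn lies over 1 Mb from the other genes, and the whole cluster was left out. Il1a and Il1b lie close together and carried paternal peaks in both genotypes, so the comparison of regions lacks them. Overlaps were tested on simulated data, where 1000 of 1000 planted overlaps among 4000 peaks were recovered. Versions were matplotlib 3.10.9, scipy 1.17.1, numpy 2.4.6, pandas 2.3.3 and Python 3.11.15.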

Additional observations from a re-analysis of the deposited data

How the results depend on the processing

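No p-value was computed, so the alternatives show how far each count moves. Both paternal lists had no peak in the window, no covered sequence and no locus gene with a peak in all 24 values recomputed. These settings remove peaks, narrow the window or recount the same peaks. With no paternal peak near the locus, none could have raised a 0, so nothing is read from the 24 values. In the Ezh2m+/p+ maternal list, a fold over 10 left 4 peaks, 1.08% of the window and 3 of the 11 locus genes, and it left 5 of 21 pathway genes, while a length over 2000 bp left all 16 peaks and lists of equal size do not shorten this list. In the Ezh2m-/p+ maternal list, 5 peaks were left at a fold over 10, at a length over 2000 bp and in a list of equal size, with 0.940%, 2.14% and 0.940% of the window and 3 locus genes in each. The difference between the genotypes, 16 against 9 peaks, thus turned at a fold over 10 (4 against 5), and was 16 against 5 at a length over 2000 bp. It was also 16 against 5 with lists of equal size, which shortens the Ezh2m-/p+ list alone and so could not narrow the difference. The length and fold limits act unequally too. The median peak had 2999 bp in the Ezh2m+/p+ and 2199 bp in the Ezh2m-/p+ maternal list, and 59.5% and 24.9% of peaks had a fold of 10 or less. From the start of Kif3a to the end of Acsl6, the share under peaks was 11.3% in the Ezh2m+/p+ and 2.18% in the Ezh2m-/p+ maternal list.

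Pathway genes with a peak numbered 12 in the Ezh2m+/p+ maternal list by overlap with the gene or the 3 kb before it, and 11 in the Ezh2m-/p+ maternal list at a length over 2000 bp. In the paternal lists they numbered 10 (Ezh2m+/p+, length over 2000 bp), 8 (Ezh2m+/p+, equal size) and 10 (Ezh2m-/p+, equal size). Of the peaks shared between the maternal lists, 2 by 1 bp, 0 were left at a reciprocal overlap of 50% (4.94% of the whole Ezh2m+/p+ and 2.96% of the Ezh2m-/p+ list), and 3 lay within 5 kb (18.9% and 11.6%). The rank of the window by Ezh2m+/p+ maternal peaks was 7, against 74 at a fold over 10 and 3 at a length over 2000 bp, and by covered sequence 2, against 135 at a fold over 10, where both limits were chosen after seeing the data. The cause of these moves was not tested. No paired analysis was possible because each genotype has 1 library and no test was made. Reads covered 2.87% and 4.15% of the paternal chromosome 11, and what this limits was not tested.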
